A study of Mus musculus with 18 samples.

Results

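The genes described here are 10 members of the matricellular and elastic fibre glycoproteins, chosen by name from the 55486 genes of the count table. They are Postn, Tnc, Thbs1, Thbs2, Sparc, Fn1, Fbln1, Fbln2, Eln and Fbn1. Each name matched 1 row, and all 10 passed the filter on low counts. They were measured by sequencing polyadenylated RNA of normal fibroblasts (NFs) from the mammary glands of adult female FVB/n mice. Cells negative for EpCAM, CD49f, CD45 and CD31 had been sorted by CD26, a surface peptidase encoded by Dpp4, with the glands of several mice pooled in a sort, and were then grown on collagen I for a few passages. The 18 libraries fall into 4 groups after 7 days of culture. CD26- NFs were kept in control conditioned medium (replicates 1 to 3) or in tumour conditioned medium, CM (replicates 4 to 9), and CD26+ NFs likewise (replicates 10 to 12 and 13 to 18). What the control conditioned medium was made from is not stated in the sources used here. The labels name only the FVB/n strain. Per the study's supplement, its NFs came from WapCre-negative mice with conditional alleles, Cdh1 F/F among them, or from mice with the mTmG reporter, and which of these gave a library is not stated. Tumour CM came from 6 independent lines from tumours of WapCre mice with conditional alleles, Cdh1 F/F among them, which model invasive lobular carcinoma and in which the Wap promoter drives Cre in mammary epithelium. CM of each line, 13-MCB-17, 10-SJK-221, 18-MCB-12, 13-MCB-44, 13-MCB-90 or 13-MCB-138, was given to 1 culture of each cell type. A CM group therefore holds 1 library a line, and differences between lines are part of its spread.

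Matricellular proteins are secreted into the matrix and change how cells attach, migrate and respond to growth factors, without carrying much of the mechanical load themselves. Elastic fibres have a core of cross-linked elastin on a scaffold of fibrillin microfibrils, to which fibulins bind. Fibroblasts make most of both in the mammary stroma, and periostin, tenascin C, thrombospondins and fibronectin are well known from wound beds and tumour stroma.

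Libraries held between 9725723 and 14585349 counts. The 10 genes took 3.07% to 4.05% of all counts in CD26- libraries and 4.66% to 5.34% in CD26+ libraries. Nothing in the labels says that replicates of a group came from separate animals, so p-values measure the spread between these cultures, which may be technical. All 9 fibroblast markers were detected in every group, and their summed level was 16525 to 18490 counts per 1000000 (CPM) in CD26- control, 9813 to 21488 in CD26- CM, 62522 to 79501 in CD26+ control and 29191 to 52131 in CD26+ CM. All 11 epithelial markers were detected in every group too, at a summed 4348 to 4822 CPM in CD26- control, 2782 to 4544 in CD26- CM, 704 to 1287 in CD26+ control and 649 to 1559 in CD26+ CM. The sorting marker Dpp4 had at most 2 counts in a library of either control group, 1 to 11 counts in the CD26- CM libraries and 8 to 104 in the CD26+ CM libraries, so it could not check the labels of the control libraries and did not separate every CM library. In CM of line 13-MCB-138, 7 of the 10 members were at their highest among the 6 lines in both cell types, at times by a small margin. The share of all genes with this line highest was not counted, so this need not be particular to the members. Results that rest on its libraries, replicates 9 and 18, are given with and without them.

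Per kilobase of exon, the members spanned a wide range. The length used is the union of all annotated exons of a gene, which can be longer than its expressed mRNA. Orders and ratios of different genes are therefore approximate, while a ratio of the same genes can be compared between groups. In CD26- NFs in control medium Thbs1 led with 1195 ± 49.5 CPM per kb (SD, n = 3), before Sparc, Fn1, Tnc, Thbs2, Fbln2, Postn, Fbn1, Fbln1 and Eln, which had 2.45 ± 0.215. Of the neighbours in this order the ranges of Thbs2 and Fbln2 overlapped. In CD26+ NFs in control medium Sparc led with 2531 ± 218 CPM per kb, before Fn1, Fbln2, Thbs2, Thbs1, Tnc, Postn, Fbn1, Fbln1 and Eln. Here Fbln2 and Thbs2, and Thbs2 and Thbs1, overlapped. In tumour CM the order was Thbs1, Sparc, Tnc, Fn1, Thbs2, Fbln2, Fbn1, Postn, Fbln1 and Eln in CD26- NFs, and Sparc, Thbs1, Tnc, Thbs2, Fn1, Fbln2, Postn, Fbn1, Fbln1 and Eln in CD26+ NFs. In CM the ranges of neighbours overlapped from Thbs1 down to Fbln2 in CD26- NFs and from Sparc down to Fn1 in CD26+ NFs, and those of Postn and Fbn1 overlapped in both.

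**Figure D1:**
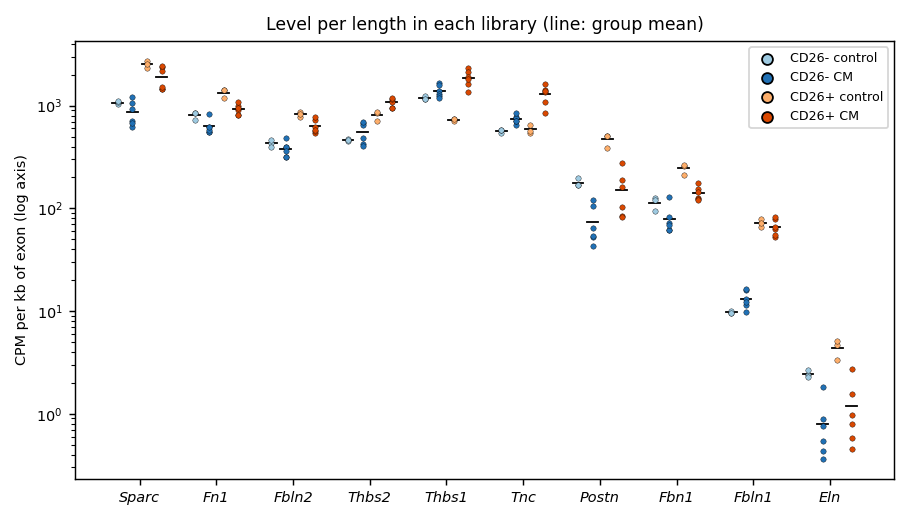
Level of each member in each of the 18 libraries, in CPM per kilobase of exon on a log axis, with a line at each group mean (3 control and 6 CM libraries a cell type). Eln lies lowest in every group, between a mean of 0.803 and 4.34 CPM per kb, and Fbln1 next to it, while Thbs1, Sparc and Fn1 are among the highest.

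CM and control medium were compared to learn how NFs change in tumour CM, whatever in it differs from control medium. In CD26+ NFs, Thbs1 and Tnc were higher in tumour CM by 2.55-fold and 2.20-fold, while Eln, Postn, Fbn1, Fn1 and Fbln2 were lower by 3.68-fold, 3.13-fold, 1.74-fold, 1.44-fold and 1.30-fold. Of the 10 members 2 were thus higher and 5 lower at an FDR under 0.05, where FDR stands for p-values of the edgeR quasi-likelihood test after Benjamini-Hochberg adjustment over 14273 genes. Among all genes tested 15.2% were higher and 13.4% lower. In CD26- NFs, Eln and Postn were lower in CM by 3.09-fold and 2.44-fold and no member passed as higher. The counts of 0 higher and 2 lower stand beside 7.88% and 7.28% of all genes. At an unadjusted p under 0.05, 2 members were higher and 4 lower in CD26- NFs, a setting at which all genes were not counted. DESeq2 called 0 members higher and 4 lower there, beside 2426 of all genes in either direction. No member passed the limit of a log2 fold change over 2 in size that the study used, which 0.904% of all genes passed in CD26- NFs and 2.01% in CD26+ NFs, though Eln passed it in fits that left out libraries, among them that without line 13-MCB-138 (-2.03 and -2.31). The median log2 fold change of the members was -0.24 in CD26- NFs and -0.40 in CD26+ NFs, beside 0.0052 and -0.0040 over all genes. Line 13-MCB-138 was left out after seeing the data, in which its CM left the 5 members lower in CD26+ NFs nearest to control there. Larger CM effects without it follow in part from that choice. Without its libraries, 5 members passed in CD26- NFs (Tnc, Fn1 and Fbn1 added) and 9 in CD26+ NFs (Thbs2 and Sparc added). The same fit also called more of all genes, 2890 instead of 2164 in CD26- NFs and 5025 instead of 4087 in CD26+ NFs. None of the 11 epithelial markers passed the edgeR test for CM in either cell type, and 1 was lower in CD26- NFs at an unadjusted p under 0.05 and by DESeq2.

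**Figure D2:**
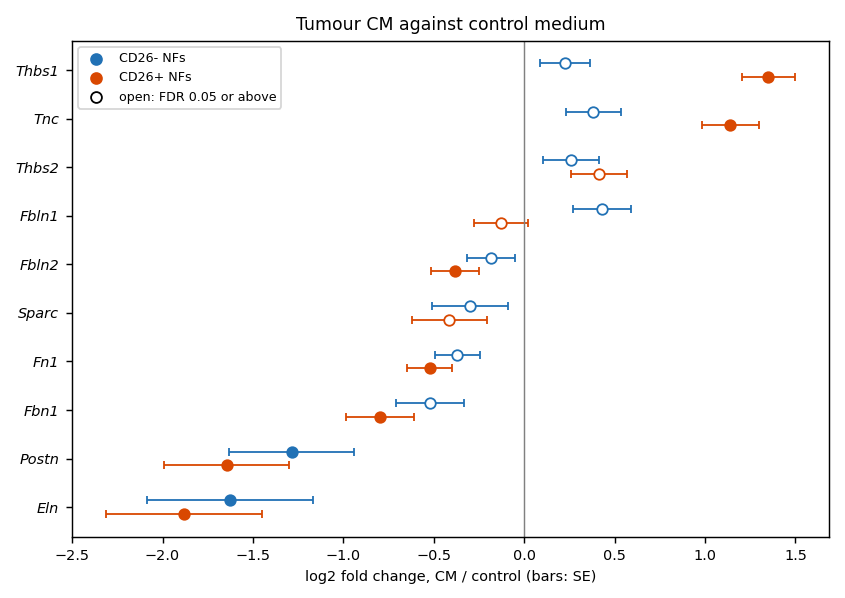
Log2 fold change of tumour CM over control medium for each member, in CD26- NFs (blue, 6 against 3 libraries) and CD26+ NFs (orange, 6 against 3), with bars for the standard error and open circles where FDR was 0.05 or above. Postn and Eln lie left of 0 with filled circles in both cell types, and Thbs1 and Tnc lie right of 0 with filled circles in CD26+ NFs, at 1.35 and 1.14.

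CD26+ and CD26- NFs were compared because they are the 2 resident populations whose fates in tumours the study set side by side. In control medium 7 members were higher in CD26+ NFs and Thbs1 was lower, where 25.0% of all genes were higher and 25.4% lower. The widest difference was in Fbln1, 7.41-fold higher and the only member past the log2 limit of 2, which 5.97% of all genes passed. In tumour CM 9 members were higher in CD26+ NFs and 0 lower (0 also at an unadjusted p under 0.05 and by DESeq2), beside 29.3% and 29.3% of all genes, and again Fbln1 alone passed the log2 limit, which 4.16% of all genes did. The median log2 difference over the members was 0.89 in control medium and 0.81 in CM, beside 0.0064 and -0.00011 over all genes. Of the 11 epithelial markers 10 were lower in CD26+ NFs in both media and 8 of 9 fibroblast markers were higher in control medium (7 in CM). Their part in the members' differences was not tested. In bulk RNA, fewer cells of a type and less RNA per cell cannot be told apart.

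**Figure D3:**
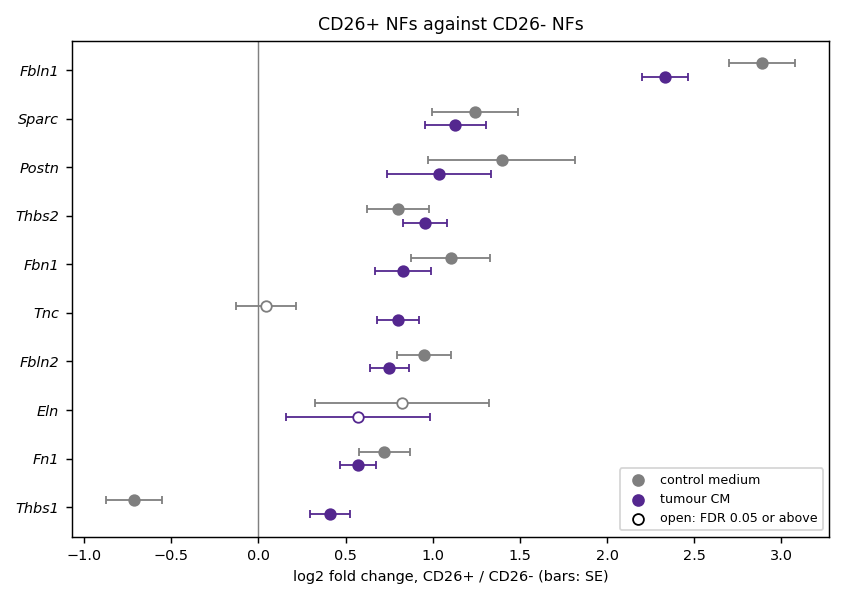
Log2 fold change of CD26+ over CD26- NFs for each member in control medium (grey, 3 against 3 libraries) and in tumour CM (purple, 6 against 6), with bars for the standard error and open circles where FDR was 0.05 or above. Thbs1 lies left of 0 in control medium (-0.71) and right of it in CM (0.41), and Fbln1 lies furthest right in both.

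**Figure D4:**
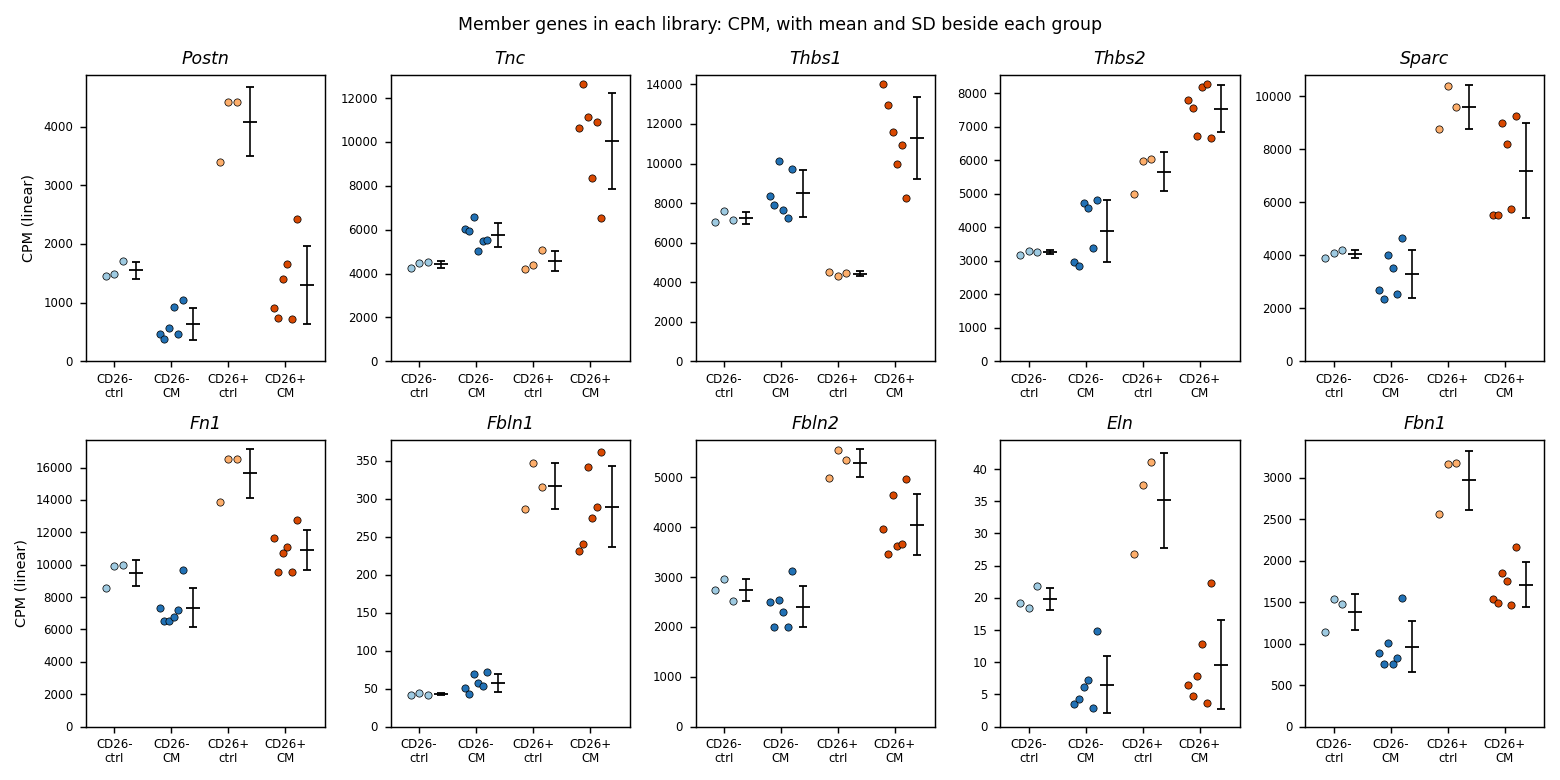
CPM of each member in each of the 18 libraries on linear axes that start at 0, 1 panel a gene, with points for libraries and the group mean with its SD beside them (3 libraries in control, ctrl, and 6 in CM). Postn and Eln drop from control to CM in both cell types, Tnc and Thbs1 climb in CD26+ NFs, and Fbln1 separates the cell types.

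Postn (ENSMUSG00000027750, chr3:54361109-54391037 of GRCm38, plus strand) encodes periostin, a matricellular protein that binds integrins and helps collagen fibrils to cross-link. In CD26- NFs it had 1461, 1478 and 1714 CPM in control medium, and in tumour CM from 372 (replicate 5) over a median of 514 to 1042 (replicate 9). In CD26+ NFs it had 3401, 4423 and 4421 CPM in control and from 720 over a median of 1148 to 2416 (replicate 18) in CM. Every CM library lay below every control library of its cell type, and the spread was wider in CM, with a coefficient of variation of 43.4% and 50.8% against 9.10% and 14.4% in control. The log2 fold change was -1.29 ± 0.35 (SE) in CD26- NFs (FDR 0.0195) and -1.65 ± 0.35 in CD26+ NFs (FDR 0.00190). The CD26- call was lost without control replicate 1 (FDR 0.0537) or 3 (FDR 0.0852). Between cell types the log2 difference was 1.40 ± 0.42 in control medium (FDR 0.0105), where the groups did not overlap, and 1.04 ± 0.30 in CM (FDR 0.00606), where they did.

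Tnc (ENSMUSG00000028364, chr4:63959785-64047015, minus strand) encodes tenascin C, a large multi-armed matrix protein that loosens adhesion to fibronectin and is made at sites of repair. In CD26- NFs it had 4242, 4498 and 4540 CPM in control medium and from 5029 (replicate 7) over a median of 5728 to 6583 (replicate 6) in CM. In CD26+ NFs it had 4210, 4398 and 5074 in control and from 6548 (replicate 18) over a median of 10778 to 12644 (replicate 14) in CM. In both cell types every CM library lay above every control library. The test passed in CD26+ NFs, with a log2 fold change of 1.14 ± 0.16 (FDR 5.18e-05), but not in CD26- NFs, with 0.38 ± 0.15 (FDR 0.0978). The latter passed when only its 2 groups were fitted (FDR 0.0183), without replicate 18 (0.0223) and without line 13-MCB-138 (0.0239). In control medium the cell types overlapped, with a log2 difference of 0.04 ± 0.17 and a 95% interval from -0.32 to 0.41 (FDR 0.856). In CM, CD26+ NFs were higher by 0.80 ± 0.12 (FDR 2.40e-05), although replicate 18 lay within the CD26- range.

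The sequences just before the starts of Postn and Tnc are shown because one fell and the other rose with CM in CD26+ NFs. Thbs1 rose there too, but no window of it was used here. They are RefSeq windows of GRCm38.p6, from 250 bases before to 50 bases after a start, for Postn chr3:54360857-54361156 (plus strand) and for Tnc chr4:64046966-64047265 (minus strand). Capitals mark the motif TATAAA, the only one found of 4 searched on both strands.
Postn: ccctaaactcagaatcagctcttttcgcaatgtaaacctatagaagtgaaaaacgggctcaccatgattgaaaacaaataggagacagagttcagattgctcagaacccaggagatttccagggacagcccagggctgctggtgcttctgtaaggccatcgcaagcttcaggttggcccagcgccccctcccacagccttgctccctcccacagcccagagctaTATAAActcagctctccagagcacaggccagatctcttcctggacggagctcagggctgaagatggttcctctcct
Tnc: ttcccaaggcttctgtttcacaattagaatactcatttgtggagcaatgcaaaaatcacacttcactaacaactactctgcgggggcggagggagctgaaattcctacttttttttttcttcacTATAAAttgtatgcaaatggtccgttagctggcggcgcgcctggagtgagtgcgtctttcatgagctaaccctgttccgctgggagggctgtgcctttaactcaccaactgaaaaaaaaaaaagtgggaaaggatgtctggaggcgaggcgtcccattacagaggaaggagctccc
TATAAA began at -26 from the start in Postn and at -126 in Tnc. Only these exact letters were searched, so variants of the TATA motif, in these or other windows, were not looked for. It was found in 4 of the 10 windows of 7 members and in 13.6% of all 32851 windows of 300 bases. The others with a hit were the window of Thbs2, on the minus strand at -126, and the second window of Tnc, which overlaps the first and holds the same TATAAA at -205. The other window of Postn had none. The other motifs searched were TGANTCA (AP-1, in 7.81% of all windows), GGAATG (TEAD, 14.7%) and the NF-kB motif (4.79%), and they occurred in none of the 10 windows of members. Fbln1 has a further window too, and no hits overlapped another motif. Thbs1, Fn1 and Eln were not analysed for promoter sequence here.

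Thbs1 (ENSMUSG00000040152, chr2:118111876-118127133, plus strand) encodes thrombospondin 1, which binds CD47 and CD36, can release TGF-beta from its latent form and restrains angiogenesis. In CD26- NFs it had 7040, 7602 and 7136 CPM in control medium and from 7221 (replicate 8) over a median of 8137 to 10127 (replicate 6) in CM. In CD26+ NFs it had 4504, 4297 and 4479 in control and from 8252 (replicate 18) over a median of 11280 to 14014 (replicate 13) in CM. The CD26+ groups did not overlap, and their control libraries were the lowest of all 18. The log2 fold change of CM was 1.35 ± 0.15 in CD26+ NFs (FDR 4.74e-06), and 0.23 ± 0.14 in CD26- NFs with a 95% interval from -0.06 to 0.52 (FDR 0.286). It was the member whose order between cell types turned over: CD26+ NFs were lower by 0.71 ± 0.16 on the log2 scale in control medium (FDR 0.00117) and higher by 0.41 ± 0.11 in CM (FDR 0.00444), the latter with overlapping groups. With CM of line 13-MCB-138 CD26+ NFs were the lower, at 8252 against 9720 CPM, and with every other line the higher. Without that line the CM difference was 0.53 (FDR 0.000205).

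Thbs2 (ENSMUSG00000023885, chr17:14665500-14694235, minus strand) encodes thrombospondin 2, the near relative of thrombospondin 1 that lacks its TGF-beta-activating sequence. It had 3184, 3300 and 3264 CPM in CD26- control and from 2857 over a median of 3972 to 4827 in CD26- CM. It had 4997, 5962 and 6025 CPM in CD26+ control and from 6672 over a median of 7681 to 8287 in CD26+ CM. CD26- CM libraries lay on both sides of the control range, whereas all CD26+ CM libraries lay above theirs. Neither CM comparison passed: the log2 fold change was 0.26 ± 0.15 in CD26- NFs (FDR 0.274) and 0.41 ± 0.16 in CD26+ NFs (FDR 0.0544). The latter passed in 5 of 18 fits with a library left out (without replicate 4, 5, 6, 9 or 18, FDR 0.0343 to 0.0488), without line 13-MCB-138 (0.45, FDR 0.0269), by DESeq2 (FDR 0.0321), without a filter (0.0464) and when only its 2 groups were fitted (0.0200). CD26+ NFs were higher in control medium by 0.80 ± 0.18 (FDR 0.00108) and in CM by 0.96 ± 0.13 (FDR 4.33e-06), with no overlap in either.

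Sparc (ENSMUSG00000018593, chr11:55394500-55423183, minus strand) encodes osteonectin, a calcium-binding matricellular protein that escorts and binds collagen. It had 3900, 4083 and 4179 CPM in CD26- control and from 2350 over a median of 3101 to 4654 in CD26- CM. It had 8749, 10401 and 9609 in CD26+ control and from 5498 over a median of 6964 to 9243 in CD26+ CM. CM libraries overlapped the control range in both cell types, and the CM log2 fold changes of -0.30 ± 0.21 (FDR 0.354) and -0.41 ± 0.21 (FDR 0.148) did not pass. Without line 13-MCB-138 the CD26+ value was -0.50 (FDR 0.0422). CD26+ NFs were higher by 1.24 ± 0.25 in control medium (FDR 0.000433) and by 1.13 ± 0.17 in CM (FDR 2.61e-05), without overlap.

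Fn1 (ENSMUSG00000026193, chr1:71585520-71653200, minus strand) encodes fibronectin, the adhesive glycoprotein on which cells assemble other matrix proteins. It took the most counts of the 10 genes. It had 8573, 9889 and 9998 CPM in CD26- control and from 6498 over a median of 6998 to 9699 in CD26- CM, where replicate 9 lay far above the other 5, which reached 7307. It had 13902, 16513 and 16532 in CD26+ control and from 9556 over a median of 10912 to 12740 in CD26+ CM. The CD26+ groups did not overlap and Fn1 fell there by 0.52 ± 0.12 on the log2 scale (FDR 0.00436). In CD26- NFs the value was -0.37 ± 0.12 (FDR 0.0514), and -0.47 without replicate 9 (FDR 0.00512). It passed as well without replicate 18 (FDR 0.0375), by DESeq2 (0.0179), with RLE (0.0451) or upper-quartile scaling (0.0451) and without a filter (0.0324). Fn1 was higher in CD26+ NFs by 0.72 ± 0.15 in control medium (FDR 0.000490), where the groups did not overlap, and by 0.57 ± 0.10 in CM (FDR 0.000128), where they did.

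Eln (ENSMUSG00000029675, chr5:134702593-134747323, minus strand) encodes tropoelastin, the soluble precursor of the elastic core. It was the lowest member, with 38 to 553 counts a library. In CD26- NFs it had 19.3, 18.4 and 21.8 CPM in control medium and from 2.95 over a median of 5.25 to 14.9 (replicate 9) in CM. In CD26+ NFs it had 26.9, 37.6 and 41.0 in control and from 3.64 over a median of 7.15 to 22.2 (replicate 18) in CM. All CM libraries lay below their controls, and those of line 13-MCB-138 were the nearest to them. Eln fell by 1.63 ± 0.46 on the log2 scale in CD26- NFs (FDR 0.0240) and by 1.88 ± 0.43 in CD26+ NFs (FDR 0.00350). Without line 13-MCB-138 these values were -2.03 (FDR 0.000374) and -2.31 (FDR 1.03e-05). The CD26- call was lost without control replicate 1 (FDR 0.0652), 2 (0.0543) or 3 (0.0991), or CM replicate 5 (0.0506). Between cell types the log2 difference was 0.82 ± 0.50 in control medium (FDR 0.182), although the groups did not overlap, and it passed when those 6 libraries alone were fitted (0.82, FDR 0.000370) or without line 13-MCB-138 (FDR 0.0311). In CM it was 0.57 ± 0.41 (FDR 0.246), and 0.54 (FDR 0.00285) with the CM line as a block. It was 0.98 without replicate 9 (FDR 0.0401), 0.15 without replicate 18 (FDR 0.748) and 0.55 without both (FDR 0.128).

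Fbn1 (ENSMUSG00000027204, chr2:125300594-125507993, minus strand) encodes fibrillin 1, the main component of microfibrils, which also store latent TGF-beta. It had 1136, 1533 and 1476 CPM in CD26- control and from 754 over a median of 854 to 1554 (replicate 9) in CD26- CM. It had 2562, 3166 and 3183 in CD26+ control and from 1468 over a median of 1646 to 2159 in CD26+ CM. In CD26- NFs only replicate 9 reached the control range, and in CD26+ NFs no CM library did. Fbn1 fell by 0.80 ± 0.19 in CD26+ NFs (FDR 0.00448). In CD26- NFs the value was -0.52 ± 0.19 (FDR 0.0727), and -0.71 without replicate 9 (FDR 0.00274), and it passed by DESeq2 (FDR 0.0453). CD26+ NFs were higher by 1.10 ± 0.23 in control medium (FDR 0.000555), where the groups did not overlap, and by 0.83 ± 0.16 in CM (FDR 0.000236), where they did.

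Fbln1 (ENSMUSG00000006369, chr15:85205949-85286535, plus strand) encodes fibulin 1, which binds fibronectin, elastin and basement membrane proteins. It had 42.1, 43.8 and 42.1 CPM in CD26- control and from 42.6 over a median of 55.0 to 72.2 in CD26- CM. It had 286, 347 and 316 in CD26+ control and from 231 over a median of 282 to 361 in CD26+ CM. Every CD26+ library was thus above every CD26- library by a wide margin, in either medium. The log2 difference was 2.89 ± 0.19 in control medium (FDR 5.03e-09) and 2.33 ± 0.13 in CM (FDR 3.96e-10). CM values of 0.43 ± 0.16 in CD26- NFs (FDR 0.0807, and 0.50 with FDR 0.0409 without replicate 5) and -0.13 ± 0.15 in CD26+ NFs (FDR 0.562) did not pass.

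Fbln2 (ENSMUSG00000064080, chr6:91212455-91272540, plus strand) encodes fibulin 2, a larger fibulin found on elastic fibres and vessel walls. It had 2740, 2953 and 2522 CPM in CD26- control and from 2003 over a median of 2397 to 3115 in CD26- CM. It had 4981, 5546 and 5342 in CD26+ control and from 3458 over a median of 3811 to 4973 in CD26+ CM. The CD26+ CM libraries lay below their controls, replicate 18 barely so. Fbln2 fell by 0.38 ± 0.13 in CD26+ NFs (FDR 0.0374), a call lost in 7 of 18 fits with a library left out (without replicate 10, 11, 12, 13, 14, 16 or 17, FDR 0.0510 to 0.110). In CD26- NFs the value was -0.19 ± 0.13 (FDR 0.375). CD26+ NFs were higher by 0.95 ± 0.16 in control medium (FDR 7.03e-05) and by 0.75 ± 0.11 in CM (FDR 1.45e-05), without overlap in either.

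Whether CM acted differently on the 2 cell types was tested as the difference of their CM effects. It passed for Thbs1 and Tnc, both with the higher effect in CD26+ NFs, where 4.53% of all genes were higher, 3.01% lower and 0.392% past the log2 limit of 2. For Thbs1 the log2 difference was 1.12 ± 0.20 (95% interval 0.71 to 1.53, FDR 0.00427), and it passed in all 25 alternative fits, with FDR up to 0.0242. For Tnc it was 0.76 ± 0.21 (0.31 to 1.20, FDR 0.0375). The Tnc call was lost in 12 of 18 fits that left out a library (without replicate 1, 2, 3, 5, 8, 10, 11, 12, 13, 14, 15 or 17, FDR 0.0513 to 0.110), and its FDR was 0.00524 with the CM line as a block and 0.00207 without line 13-MCB-138. Fbln1 had -0.56 ± 0.22 (FDR 0.119), and passed with the line as a block (-0.55, FDR 0.00129) or without replicate 18 (-0.64, FDR 0.0415), but not without both libraries of line 13-MCB-138 (-0.56, FDR 0.0584). For Postn the difference was -0.36 ± 0.51 with a 95% interval from -1.43 to 0.71, and for Eln -0.25 ± 0.65 from -1.62 to 1.11, intervals that leave room for sizeable differences either way. The remaining 5 members lay between -0.28 and 0.15 with FDR of 0.563 or above.

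Levels in the 12 CM libraries were also compared between the 6 lines, with cell type as another term. Levels differed between lines for 6 of 10 members at an FDR under 0.05, beside 6.56% of all 13344 genes in this test. These were Eln (FDR 0.00207), Postn (0.00209), Sparc (0.00328), Fbln1 (0.00576), Fbln2 (0.0229) and Fbn1 (0.0438), that is, all 4 elastic fibre genes with Postn and Sparc. Fn1 (FDR 0.140), Tnc (0.286), Thbs1 (0.722) and Thbs2 (0.770) did not pass. The call for Fbn1 was lost in 8 of 12 fits with a library left out (without replicate 4, 5, 6, 8, 13, 14, 15 or 17, FDR 0.0789 to 0.114) and without line 13-MCB-138 (FDR 0.126), and that for Fbln2 in 7 (without replicate 5, 6, 8, 14, 15, 16 or 17, FDR 0.0532 to 0.0775). Tnc passed without replicate 9 (FDR 0.0113) and without a filter on low counts (0.000157), and Fn1 passed by DESeq2 (FDR 0.00375) and without a filter (2.16e-05). Without line 13-MCB-138, Sparc (FDR 0.00111), Postn (0.00169), Fbln1 (0.00674), Eln (0.00946) and Fbln2 (0.0377) still passed.

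By line, Eln and Postn lay below the control mean with all 6 lines in both cell types. Eln ranged from -0.41 (13-MCB-138) to -2.68 (13-MCB-90) on the log2 scale in CD26- NFs and from -0.63 to -3.19 with the same lines in CD26+ NFs. Postn ranged from -0.57 (13-MCB-138) to -2.06 (10-SJK-221) in CD26- NFs and from -0.75 (13-MCB-138) to -2.49 (13-MCB-90) in CD26+ NFs. CM of 13-MCB-138 thus left both genes nearest to control. In CD26+ NFs the same line gave the smallest increase of Tnc (0.53, up to 1.48 with 10-SJK-221), of Thbs1 (0.90, up to 1.66 with 13-MCB-17) and of Thbs2 (0.24, up to 0.55 with 13-MCB-90). In CD26- NFs it was not at the low end for these genes: it had the highest Thbs2 (0.57), and Tnc ranged from 0.18 (13-MCB-44) to 0.57 (18-MCB-12). Fbn1, Fn1, Sparc and Fbln2 lay below the control mean with all 6 lines in CD26+ NFs and with 5 of 6 in CD26- NFs, where 13-MCB-138 was the exception. Each line gave 1 library a cell type, so the value of a line within a cell type has no replicate.

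**Figure D5:**
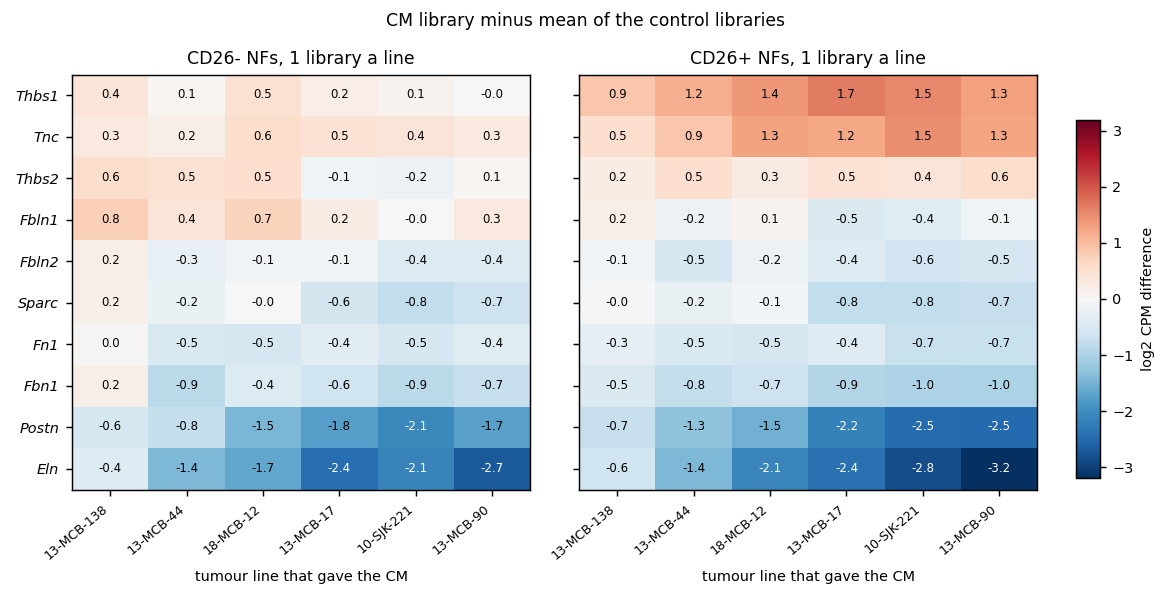
Log2 CPM of each CM library minus the mean of the control libraries of its cell type, for each member (rows) and line (columns), with CD26- NFs on the left and CD26+ NFs on the right and 1 library a cell. Postn and Eln are blue throughout and palest with 13-MCB-138, and Thbs1 and Tnc are red throughout in CD26+ NFs.

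As levels per length, the balance between members shifted with CM. The ratio of Tnc to Postn was 3.21 ± 0.223 (SD, n = 3) in CD26- control and 11.8 ± 4.82 (n = 6) in CD26- CM, with CM values from 5.93 to 17.9. In CD26+ NFs it was 1.26 ± 0.138 in control and 11.2 ± 6.40 in CM, from 3.03 to 19.2. No CM value reached down to the control range of its cell type. The ratio of Thbs1 to Thbs2 was 2.58 ± 0.0710 in CD26- control and 2.61 ± 0.518 in CD26- CM, but 0.909 ± 0.113 in CD26+ control and 1.73 ± 0.311 in CD26+ CM. By this approximate measure Thbs1 was near the level of Thbs2 in CD26+ control NFs and above it in every library of the other groups.

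The other genes of these pathways were taken from lists by name. Those with the smallest p in a comparison are named, so a change given for 1 cell type may occur in the other too. Of 20 further matricellular genes 16 were tested. In CD26- NFs 1 was higher and 3 lower in CM (median log2 fold change -0.25), and in CD26+ NFs 4 were higher and 7 lower (median -0.34). Tnxb, a tenascin of connective tissue, rose by 1.32 ± 0.30 and 2.17 ± 0.29 on the log2 scale in CD26- and CD26+ NFs. Smoc2, a relative of Sparc, fell by 1.65 ± 0.31 and by 2.07 ± 0.29, and Smoc1 fell by 1.47 ± 0.32 in CD26- NFs. The mean of Smoc1 was lower in CM in CD26+ NFs too, at 4.06 against 9.59 CPM. In CD26+ NFs Ccn1 rose by 0.98 ± 0.14, and Comp, the cartilage thrombospondin, fell by 3.02 ± 0.49 with at most 80 counts in a library. In CD26+ against CD26- NFs 8 were higher and 2 lower in control medium (median 0.98). The smallest p among the higher genes were those of Tgfbi (3.77 ± 0.32) and Thbs3 (1.79 ± 0.25), while Comp, Tnn and Thbs4, looked up after the values were seen, had larger fitted differences with wider errors, from means of 0.12, 3.37 and 0.27 CPM in CD26- NFs. Ccn2 (-0.94 ± 0.20) and Ccn1 (-0.56 ± 0.16) were lower. In CM 8 were higher and 0 lower (median 0.66), with the smallest p for Tgfbi (3.11 ± 0.22) and Sparcl1 (3.01 ± 0.29) and larger fitted differences in Thbs4 and Tnn, from means of 0.33 and 0.85 CPM in CD26- NFs. For the difference of CM effects 0 of 16 passed in edgeR (median 0.036), 3 were higher and 2 lower at an unadjusted p under 0.05, and DESeq2 called 2 higher and 1 lower.

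Of 20 further elastic fibre and microfibril genes 19 were tested. In CM 2 were higher and 2 lower in CD26- NFs (median -0.076), and 2 higher and 7 lower in CD26+ NFs (median -0.18). Efemp1, which encodes fibulin 3, rose by 1.33 ± 0.39 in CD26- NFs, as did the elastin cross-linking enzyme gene Loxl1 by 0.35 ± 0.10, while its relatives Loxl3 and Loxl4 fell by 0.33 ± 0.079 and by 0.39 ± 0.11. In CD26+ NFs Mfap5 (0.59 ± 0.10) and Ltbp1 (0.46 ± 0.12) rose, and Fbn2, the second fibrillin, fell by 1.75 ± 0.22 and Loxl4 by 0.87 ± 0.11. Fbn2 was also 1 of 2 genes past the test of the difference between CM effects (-1.69 ± 0.35), with Ltbp3 (-0.46 ± 0.12). In CD26+ against CD26- NFs 15 of 19 were higher in control medium and 15 in CM (medians 0.89 and 1.01), among them Mfap2 (2.63 ± 0.19 in control, 1.89 ± 0.13 in CM), Fbn2 in control (3.36 ± 0.30) and Loxl1 in CM (1.06 ± 0.081). Ltbp1 alone was lower in control medium (-0.61 ± 0.14). In CM edgeR and DESeq2 called 0 lower, with 1 at an unadjusted p under 0.05.

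Among 15 receptors of these proteins, integrin chains, Cd47, Cd36, syndecans and Lrp1, 3 were higher and 2 lower in CM in CD26- NFs (median 0.11), and 7 higher and 0 lower in CD26+ NFs (median 0.41), where DESeq2 called 8 higher and 0 lower, as did an unadjusted p under 0.05. Cd47, a receptor of thrombospondin 1, rose by 0.47 ± 0.096 and 0.56 ± 0.095. Itga4, an integrin chain that binds fibronectin, rose by 3.61 ± 0.86 in CD26- NFs, from a mean of 0.78 CPM in control to 9.65 in CM. Its mean went from 0.38 to 7.29 CPM in CD26+ NFs, so the control level was low in both cell types. In CD26- NFs Itgb8 and Itgb1 fell by 1.34 ± 0.19 and by 0.31 ± 0.071. Sdc4, a syndecan that binds fibronectin and tenascin C, rose by 0.83 ± 0.076 in CD26+ NFs, and the difference of its CM effects passed (0.60 ± 0.10), as did that of Itgav (0.57 ± 0.11) and 1 other receptor. In CD26+ against CD26- NFs 4 were higher and 5 lower in control medium (median -0.11) and 6 higher and 4 lower in CM (median 0.31). Itga9 (1.20 ± 0.19) and Cd47 (0.73 ± 0.11) were higher and Itgb6 (-2.62 ± 0.26) and Itgb1 (-0.67 ± 0.083) lower in control medium. In CM Cd47 (0.82 ± 0.076) and Sdc4 (0.61 ± 0.060) were higher and Itgb6 (-2.19 ± 0.18) and Itga8 (-1.82 ± 0.22) lower.

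Of 16 genes of TGF-beta signalling and its feedback, 1 was higher and 6 lower in CM in CD26- NFs (median -0.28), and 2 higher and 4 lower in CD26+ NFs (median 0.044). Tgfbr3, a co-receptor, rose by 0.81 ± 0.12 in CD26- NFs, where Ldlrad4 and Skil, both feedback inhibitors, fell by 0.76 ± 0.16 and by 0.35 ± 0.083. In CD26+ NFs the repressor gene Tgif1 rose by 0.37 ± 0.11, while the ligand gene Tgfb3 fell by 0.91 ± 0.22 and Ski by 0.15 ± 0.048. Mean Tgfb3 was lower in CM in both cell types, at 84.4 against 146 CPM in CD26- NFs and 95.2 against 179 in CD26+ NFs. The difference of CM effects passed as higher in CD26+ NFs for 6 of the 16, among them Smad3 (0.54 ± 0.12), and as lower for 2, Tgfbr3 (-0.72 ± 0.16) and Ski (-0.25 ± 0.069). In CD26+ against CD26- NFs 4 were higher and 7 lower in control medium (median -0.24) and 5 higher and 2 lower in CM (median -0.10). Tgfbr3 (2.09 ± 0.14) and Ski (0.82 ± 0.056) were higher in control medium, and Tgif1 (-1.25 ± 0.13) and Skil (-0.81 ± 0.098) lower. The same 4 genes had the smallest p on either side in CM, with 1.36 ± 0.095, 0.57 ± 0.040, -0.73 ± 0.089 and -0.30 ± 0.069.

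Markers of other cells were counted too. Of those tested for CM, 1 of 3 endothelial and 1 of 5 pericyte and smooth muscle genes were higher, and 1 of the latter lower, in CD26- NFs, and 1 of 5 was higher in CD26+ NFs. For immune and adipocyte cells 2 markers each were tested, and edgeR and DESeq2 called 0 for CM, with 1 adipocyte marker lower at an unadjusted p under 0.05 in CD26+ NFs. In CD26+ against CD26- NFs in control medium 1 of 2 immune, 1 of 3 endothelial and 3 of 5 pericyte and smooth muscle markers were lower, and both adipocyte markers tested were higher. All 4 listed adipocyte markers summed to 3.26 to 7.61 CPM in CD26+ control, against at most 0.290 in CD26- control. In CM 1 immune, 1 endothelial and 2 pericyte and smooth muscle markers were lower and 1 of these and both adipocyte markers were higher. Fibroblast markers were mixed in CM, with 4 higher and 1 lower in CD26- NFs and 3 higher and 4 lower in CD26+ NFs. The part of these markers in the members' results was not tested.

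Genes whose profile lay closest to each member were found by the root mean square distance of centred log2 CPM over the 18 libraries, among 11124 genes, as a description without a test. Eln had another member, Postn, as its nearest gene (distance 0.42), followed by Nrep (0.43). The nearest to Postn were Cx3cl1 (0.23) and Hoxb9 (0.30), with Eln at rank 12. Tnc lay next to Mapre2 (0.11) and Pam (0.14), and Thbs1 next to Nav2 (0.13) and Vegfa (0.14). Thbs2 lay next to Gstm2 (0.13) and Antxr1 (0.16). Sparc lay next to Rcn3 (0.082) and P4ha3 (0.10), and Fbln2 next to P4ha1 (0.11) and Bgn (0.12), where P4ha3 and P4ha1 encode subunits of the collagen prolyl hydroxylase and Bgn a small matrix proteoglycan. Fn1 lay next to N4bp2 (0.13) and Kdelr2 (0.15), Fbn1 next to Tacc1 (0.18) and Fkbp7 (0.19), and Fbln1 next to Dio3 (0.27) and Rasl11a (0.30). Libraries of a group share cell type and medium, which contributes to every distance.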

How the data were processed

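Per the labels and the study's methods, stranded polyA libraries were read on GRCm38 with HISAT2 2.1.0 and counted with HTSeq; the annotation release and strand setting were not given in the sources used here. The authors deposited raw counts per Ensembl gene, 1 column a library and without normalization. All 55486 genes and 18 libraries were used, and 1 row without a gene, with 0 counts, was left out. Opposite-strand genes that overlap 5 members held at most 0.113% of a member's counts.

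Groups came from the labels. In R 4.3.3, genes passing filterByExpr of edgeR 4.0.16 (14273) were scaled with TMM and tested with the quasi-likelihood F test with the 4 groups as terms and 5 contrasts. Lines were tested in the 12 CM libraries with terms for cell type and line (13344 genes). Calls were made at an FDR below 0.05, and the study's limit of 2 on the log2 fold change is given beside it. SE is the size of the log2 fold change divided by the root of F. CPM are counts per 1000000 of the TMM-scaled library size, and log2 CPM used a prior count of 2. Exon lengths are the union of all exons in GENCODE M21, whose gene spans match those of the table. Alternatives were scaling by upper quartile or RLE, DESeq2 1.42.0, keeping all genes or those averaging 5 CPM or more, fitting only the groups compared, the line as a block and leaving out each library. Leaving out line 13-MCB-138 was added after seeing the data. The tests were tried on simulated counts.

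The members and all 12 gene lists were chosen with earlier results of these data known. Named genes are all members, from each list up to 2 higher and 2 lower genes with the smallest p in a comparison, and for each member the 2 genes of nearest profile among those that average 5 CPM or more in some group. Libraries of the same line deviated together (correlation of deviations from the group means over genes 0.247 to 0.406 in all 6 pairs), so the line, which the labels give, pairs the CM libraries. Chi-square of counts between replicates was at least 3.22 per degree of freedom, so no library was a copy. The labels give no batch. A gene that the rule names and an allele of the tumour model are not reported here.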

Additional observations from a re-analysis of the deposited data

Results flagged for a closer look

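Fn1 in CD26- NFs with CM of line 13-MCB-138 (replicate 9) had 9699 CPM. In log2 CPM its gap to the next library was 0.707 of the range of the 6 CM libraries, above the 95% limit of Dixon's test for 6 values. It was the only such library among 20 groups of CM libraries examined, and chance gives about 1 in 20. The CM effect differed between the cell types for Thbs1, by 1.12 on the log2 scale, and for Tnc, by 0.76, both by the test of the difference itself.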

How the results depend on the processing

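Over the members and all alternatives, 1362 results kept their direction and side of the threshold, 34 gained and 41 lost a call, and 3 uncalled differences changed sign: those of the CM effects of Sparc (0.011) and Eln (0.15) without CD26- CM replicate 9, and that of Tnc between cell types in control medium (-0.035) without CD26+ control replicate 12. Over all fits that left out a library these ranged from -0.21 to 0.011, from -0.68 to 0.15 and from -0.035 to 0.099. Leaving out a library gave 0 to 4 members (2 with all libraries) for CM in CD26- NFs, with 0 without CD26- control replicate 1 or 3, 6 to 8 (7) for CM in CD26+ NFs, 8 in each fit (8) between cell types in control medium, 9 to 10 (9) in CM, 1 to 3 (2) for the difference of CM effects and 4 to 7 (6) for the line. Over all genes these ranges were 825 to 2748 (2164), 2756 to 4971 (4087), 6118 to 7473 (7186), 7869 to 8456 (8360), 339 to 2345 (1075) and 360 to 2060 (876). The lowest counts came without CD26- control replicate 3 (825), CD26+ control replicate 11 (2756, 6118 and 339), CD26- CM replicate 8 (7869) and CD26+ CM replicate 17 (360). The cause was not tested.

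For CM in CD26- NFs, DESeq2 called 4 members and 2426 of all genes, and the fit without line 13-MCB-138 called 5 and 2890. For the line, all genes called were 1373 by DESeq2, 2475 without a filter and 1420 without line 13-MCB-138. For the difference of CM effects they were 2412 without that line. With the line as a replicate block they were 2516, with 3 members, and between cell types in CM they were 8999, with 10 members. The pairing changed the calls of Fbln1 and Eln given above and no other member's call. No scaling moved the median of all genes by over 0.1 on the log2 scale. Eln, with 38 counts in its lowest library, has the least depth.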

Other observations

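Balances within the elastic fibre genes, as ratios of levels per length without a test, also differed between groups. Fbn1 to Eln was 46.7 ± 8.15 (SD, n = 3) in CD26- control and 57.2 ± 5.99 in CD26+ control, and 120 ± 48.8 (n = 6) and 159 ± 75.1 in CM, with every CM value above the control range of its cell type. Fbln2 to Fbln1 was 44.0 ± 2.63 in CD26- control, 29.0 ± 3.53 in CD26- CM, 11.5 ± 0.499 in CD26+ control and 9.69 ± 1.09 in CD26+ CM. The CD26- groups did not overlap in this ratio, while those of CD26+ NFs did.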
